A study of Mus musculus with 16 samples.

Results

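A set of 10 genes of mitochondrial fatty acid beta-oxidation was followed in mouse mammary adipose tissue: Cpt1a, Slc25a20 and Cpt2 of the carnitine shuttle, the acyl-CoA dehydrogenases Acadvl, Acadl and Acadm, the trifunctional protein subunits Hadha and Hadhb, the thiolase Acaa2 and the nuclear receptor Ppara. They were chosen by symbol, and all 10 were among the 23179 genes of the table and among the 21218 that passed a filter on low counts. The tissue was the mammary fat pad opposite an orthotopic tumor of E0771 mouse mammary cancer cells in wild-type female C57BL/6N mice, profiled by RNA-Seq in 16 libraries, each carrying the number of another animal. CON-LFD mice (n = 4) had a 10% fat diet throughout. The other groups were made obese on a 60% fat diet (DIO) for 15 weeks before surgery and then either stayed on it (DIO-HFD, n = 4), were moved to the 10% fat diet (DIO-LFD, n = 4) or received a vertical sleeve gastrectomy and the 10% fat diet (DIO-VSG, n = 4). Mice without the gastrectomy had a sham operation, mice arrived at 8 weeks of age, tumor cells were injected 22 weeks after randomization, and tissue was taken 4 weeks later. All groups therefore carried a tumor, and no tumor-free group was analysed here.

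Beta-oxidation shortens fatty acids by a pair of carbons at a time inside the mitochondrion and yields acetyl-CoA, NADH and FADH2. Long-chain acyl groups enter only as acylcarnitines: carnitine palmitoyltransferase 1 on the outer membrane makes them and is inhibited by malonyl-CoA, a carrier in the inner membrane moves them, and carnitine palmitoyltransferase 2 turns them back into acyl-CoA. White adipocytes mainly store and release fatty acids, whereas brown and beige adipocytes burn them to make heat and are rich in these enzymes. PPAR-alpha, the product of Ppara, is a fatty acid-activated transcription factor that binds DNA as a partner of RXR and is known to induce many genes of the pathway.

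Promoter windows, from 250 bases before to 50 after the start, were listed by RefSeq (GRCm38.p6) for 9 of the 10 members, all except Acaa2. They are shown for Cpt1a, the one member with its highest mean in DIO-HFD, for Acadm and Acadvl, which hold the same short motif, and for the stretch between Hadha and Hadhb, whose levels moved together. Only the 250 bases before the start are printed, cut to their longest stretch without bases that GENCODE M21 places in an exon. Each stretch is written 5′ to 3′ on the strand of the gene, and capitals mark AGGTCA or its reverse complement TGACCT, the core sequence bound by PPAR-alpha and related receptors.
Cpt1a, chr19:3323051-3323284, plus strand, 234 bases: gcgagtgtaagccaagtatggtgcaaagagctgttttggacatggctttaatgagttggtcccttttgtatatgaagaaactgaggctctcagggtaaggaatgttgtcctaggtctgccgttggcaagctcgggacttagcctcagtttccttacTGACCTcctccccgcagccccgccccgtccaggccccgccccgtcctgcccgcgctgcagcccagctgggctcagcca
Acadm, chr3:153944644-153944893, minus strand, 250 bases: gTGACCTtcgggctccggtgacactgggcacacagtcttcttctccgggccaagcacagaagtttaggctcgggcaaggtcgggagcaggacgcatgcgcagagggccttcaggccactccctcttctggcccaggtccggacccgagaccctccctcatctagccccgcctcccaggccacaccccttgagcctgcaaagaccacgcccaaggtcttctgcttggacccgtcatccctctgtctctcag
Acadvl, chr11:70015429-70015678, minus strand, 250 bases: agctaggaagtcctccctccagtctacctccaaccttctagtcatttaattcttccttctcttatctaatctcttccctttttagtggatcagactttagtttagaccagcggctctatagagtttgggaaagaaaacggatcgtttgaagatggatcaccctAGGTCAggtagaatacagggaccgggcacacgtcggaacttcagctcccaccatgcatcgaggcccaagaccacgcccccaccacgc
Hadhb, chr5:30155163-30155247, plus strand, 85 bases: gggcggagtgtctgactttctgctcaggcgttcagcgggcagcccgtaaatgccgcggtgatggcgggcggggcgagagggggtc

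The motif AGGTCA, read on both strands, was present in 3 of the 9 windows (Cpt1a, Acadm and Acadvl) and in 16.3% of all 32851 windows of the same length. The longer motif AGGTCANAGGTCA, a direct repeat of it that may overlap it, was searched with up to 2 mismatches and was found in 1 member window, that of Slc25a20, and in 3.86% of all windows. TCAAGGTCA, which contains the short motif and is the form bound by estrogen-related receptors, was found in 0 of 9 member windows and 0.423% of all. A match describes letters only, and sites outside these windows were not searched. Hadha and Hadhb are arranged head to head on chromosome 5, with 272 bases between their RefSeq starts, and the 85 bases printed lie between their first GENCODE exons. In Cpt1a the printed stretch lies within the gene as GENCODE draws it, since another transcript starts upstream.

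Between 46907377 and 57610899 reads were recovered per library, and the lowest count behind any member value was 94 reads (Ppara in DIO-HFD replicate 1), so counting error was small beside the spread between mice. Values below are normalized counts, that is reads divided by the size factor of the library. Other cell types differed widely between libraries. The summed normalized counts of 10 B cell genes ranged from 338 to 83726 in CON-LFD, from 1149 to 109696 in DIO-HFD, from 19915 to 45369 in DIO-LFD and from 75779 to 87520 in DIO-VSG, and those of 14 skeletal muscle genes reached 178547 in DIO-LFD. The 14 adipocyte genes were present in every library, with sums from 461745 (DIO-HFD) to 1808057 (DIO-LFD). Over all libraries, summed T cell markers ranged from 989 to 46559, macrophage markers from 15148 to 117540 and mammary epithelial markers from 30335 to 126320. In bulk tissue, fewer cells of a type and less RNA per cell cannot be told apart.

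The 9 members other than Cpt1a were at their highest in CON-LFD replicate 2 and at their lowest in DIO-HFD replicate 1, while Cpt1a was highest in DIO-HFD replicate 2 and lowest in DIO-LFD replicate 2. The range between the highest and the lowest library was 1.79-fold for Cpt1a, 4.73-fold to 7.72-fold for the other enzymes and the carrier, and 29.3-fold for Ppara. Per kilobase of transcript, mean levels in CON-LFD were highest for Acadl (10832 ± 5650 normalized counts per kilobase, SD, n = 4), Acadm (9219 ± 4267) and Hadhb (8986 ± 6861), then Acadvl (5753 ± 4485), Acaa2 (5706 ± 4236) and Hadha (5248 ± 3036), and lower for Cpt2 (3015 ± 1292), Slc25a20 (2772 ± 1780), Cpt1a (1835 ± 233) and Ppara (320 ± 294). Each level in this order lay within an SD of its neighbour except that Ppara was below Cpt1a. In DIO-HFD the level of Cpt1a per kilobase (2139 ± 226) stood above those of Slc25a20 (1514 ± 303) and Cpt2 (1226 ± 383).

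**Figure D1:**
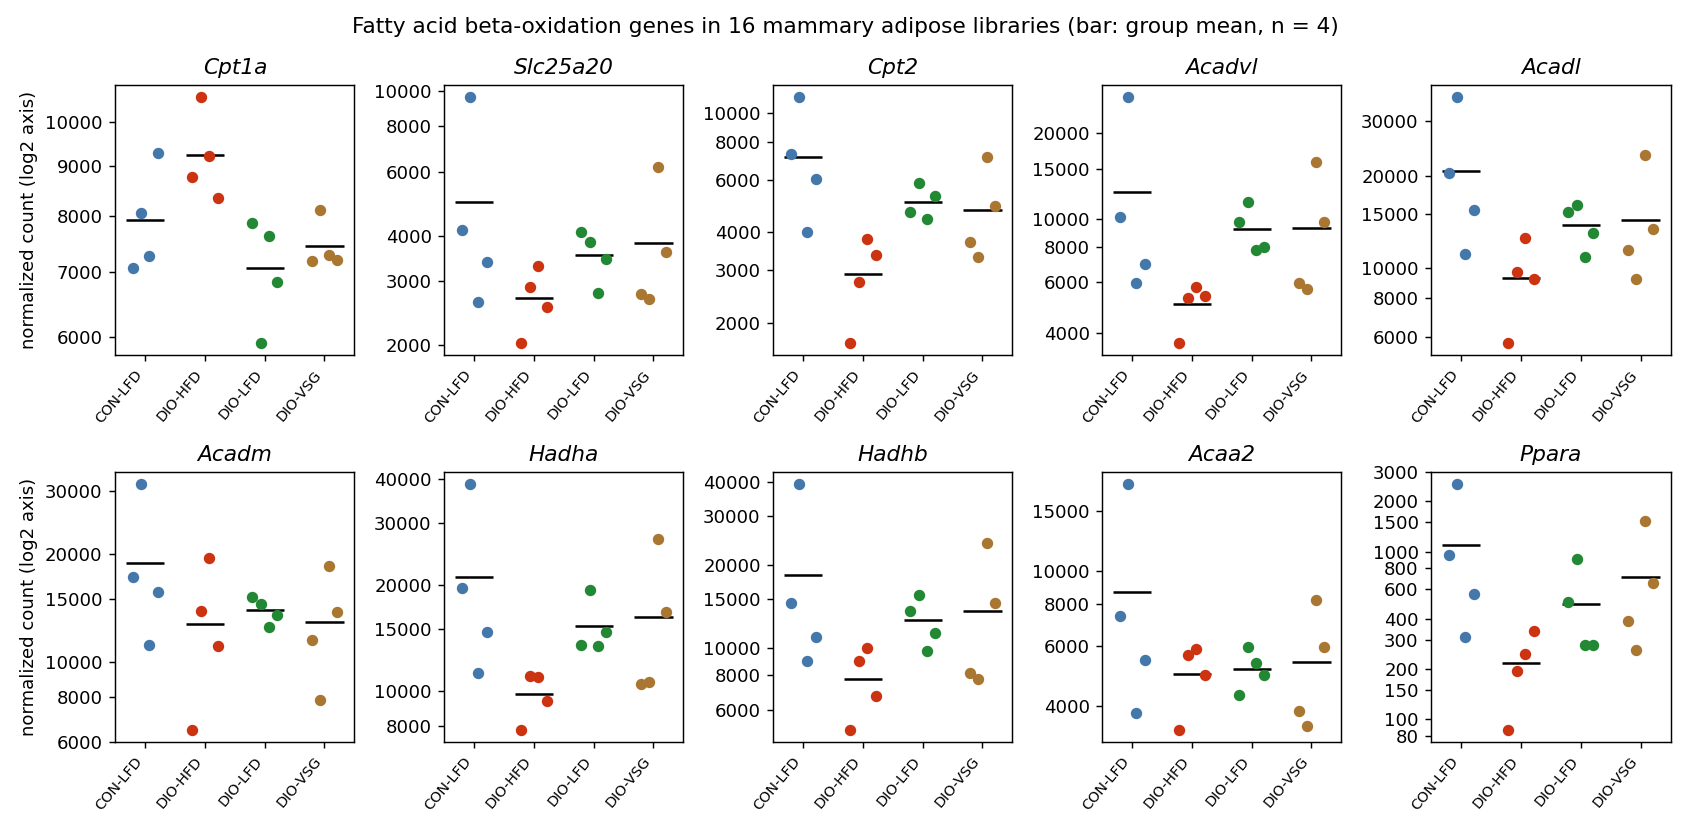
Normalized counts (log2 axis, scaled separately for each gene) of the 10 genes in the 4 libraries of each group, with points for libraries and bars for group means. Cpt1a has its highest mean in DIO-HFD, while the other 9 genes have their lowest mean there and their highest library in CON-LFD.

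Cpt1a encodes the liver form of carnitine palmitoyltransferase 1, which controls entry of long-chain fatty acids into mitochondria (chromosome 19, 3322334 to 3385733, GRCm38). Its normalized counts in replicates 1 to 4 were 7067, 8053, 7268 and 9290 in CON-LFD and 8768, 10596, 9225 and 8346 in DIO-HFD. They were 7874, 5925, 7625 and 6840 in DIO-LFD and 7195, 8118, 7291 and 7207 in DIO-VSG. Every DIO-HFD library lay above every DIO-LFD and DIO-VSG library, whereas CON-LFD replicate 4 lay within the DIO-HFD range. The limma log2 change in DIO-LFD minus DIO-HFD was -0.39 ± 0.11 (SE), with an unadjusted P of 0.00377 and an adjusted P of 0.424. In DIO-VSG minus DIO-HFD it was -0.31 ± 0.11 (limma unadjusted P = 0.0166, adjusted P = 0.312). Both contrasts gave an exact two-sided permutation P of 0.0286, the smallest that 4 against 4 allows. In DIO-HFD minus CON-LFD it was 0.22 ± 0.11 (limma adjusted P = 0.42).

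Slc25a20 and Cpt2 encode the next steps of the shuttle, the carnitine-acylcarnitine carrier (chromosome 9, 108662088 to 108684641) and carnitine palmitoyltransferase 2 (chromosome 4, 107903981 to 107923610). Cpt2 had normalized counts of 7301, 11274, 4002 and 6030 in CON-LFD and of 1718, 2731, 3818 and 3362 in DIO-HFD. They were 4663, 5861, 4419 and 5285 in DIO-LFD and 3718, 3322, 7113 and 4896 in DIO-VSG. The DIO-HFD libraries lay below all CON-LFD and all DIO-LFD libraries but overlapped DIO-VSG. The limma log2 change of Cpt2 in DIO-HFD minus CON-LFD was -1.26 ± 0.31 (SE), with an unadjusted P of 0.00127 and an adjusted P of 0.185. It was 0.85 ± 0.31 in DIO-LFD minus DIO-HFD (limma adjusted P = 0.483) and 0.71 ± 0.31 in DIO-VSG minus DIO-HFD (limma adjusted P = 0.366). Slc25a20 had the lowest mean in DIO-HFD too (2699 ± 540, SD, n = 4, against 4942 ± 3173 in CON-LFD, 3549 ± 572 in DIO-LFD and 3813 ± 1638 in DIO-VSG), but its groups overlapped in every pair and its limma unadjusted P in DIO-HFD minus CON-LFD was 0.0608.

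The opposite placement of the outer and inner membrane transferases shows in their ratio within a library, which was examined after the values were seen and is given without a test. Per kilobase, Cpt1a was 1.33 to 2.8 times Cpt2 in the 4 DIO-HFD libraries. It was 0.392 to 0.998 times Cpt2 in CON-LFD, 0.555 to 0.948 times in DIO-LFD and 0.563 to 1.34 times in DIO-VSG. The DIO-HFD range overlapped that of DIO-VSG only.

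The first oxidation of the cycle is made by acyl-CoA dehydrogenases of different chain length: very long (Acadvl, chromosome 11, 70010183 to 70015411), long (Acadl, chromosome 1, 66830839 to 66863277) and medium (Acadm, chromosome 3, 153922357 to 153944632). Acadvl had normalized counts of 10146, 26810, 5969 and 6964 in CON-LFD and of 3685, 5295, 5766 and 5382 in DIO-HFD. They were 9745, 11530, 7776 and 8002 in DIO-LFD and 5996, 5697, 15898 and 9800 in DIO-VSG. All DIO-HFD libraries were below all CON-LFD and DIO-LFD libraries, in the case of CON-LFD by a gap of 5766 against 5969, and 1 DIO-VSG library fell within the DIO-HFD range. The limma log2 change in DIO-HFD minus CON-LFD was -1.06 ± 0.41 (adjusted P = 0.308) for Acadvl, and in DIO-LFD minus DIO-HFD it was 0.88 ± 0.41 (unadjusted P = 0.0504).

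Acadl had a mean of 20754 ± 10826 normalized counts (SD, n = 4) in CON-LFD, 9321 ± 2808 in DIO-HFD, 13800 ± 2307 in DIO-LFD and 14388 ± 6260 in DIO-VSG, and its limma log2 change in DIO-HFD minus CON-LFD was -1.07 ± 0.35 (unadjusted P = 0.00823, adjusted P = 0.25). Acadm stood closest to even across groups among the dehydrogenases. It had normalized counts of 17277, 31391, 11177 and 15643 in CON-LFD and of 6491, 13912, 19570 and 11089 in DIO-HFD. They were 15175, 14559, 12572 and 13530 in DIO-LFD and 11515, 7850, 18579 and 13815 in DIO-VSG. DIO-HFD replicate 3 held the second highest Acadm count of all 16 libraries, and the groups overlapped in every pair. The limma log2 changes of Acadm were -0.57 ± 0.35 in DIO-HFD minus CON-LFD, 0.23 ± 0.35 in DIO-LFD minus DIO-HFD and 0.06 ± 0.35 in DIO-VSG minus DIO-HFD, with adjusted P values of 0.515 to 0.94.

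Hadha and Hadhb (chromosome 5, 30118304 to 30155162 and 30155248 to 30184593), the head-to-head pair whose intervening sequence is printed above, encode the alpha and beta subunits of the mitochondrial trifunctional protein, which carries out the last 3 steps of the cycle for long chains. Hadha had normalized counts of 19676, 38626, 11261 and 14756 in CON-LFD and of 7801, 11084, 10953 and 9393 in DIO-HFD. They were 13506, 19411, 13413 and 14733 in DIO-LFD and 10515, 10659, 26926 and 16738 in DIO-VSG. The highest DIO-HFD value was below the lowest of CON-LFD (11084 against 11261) and of DIO-LFD. The limma log2 change in DIO-HFD minus CON-LFD was -0.96 ± 0.35 for Hadha (adjusted P = 0.278) and -1.04 ± 0.44 for Hadhb (adjusted P = 0.335). Hadhb had means of 18404 ± 14052 (SD, n = 4) in CON-LFD, 7715 ± 2233 in DIO-HFD, 12589 ± 2539 in DIO-LFD and 13583 ± 7576 in DIO-VSG.

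The ratio of the subunits varied little. Per kilobase, log2(Hadha/Hadhb) was -0.66 ± 0.18 (SD) over the 16 libraries, from -0.99 to -0.35, with group means of -0.68 ± 0.22 in CON-LFD, -0.59 ± 0.21 in DIO-HFD, -0.69 ± 0.2 in DIO-LFD and -0.67 ± 0.14 in DIO-VSG (n = 4 each). Each subunit alone ranged over 4.95-fold (Hadha) and 7.72-fold (Hadhb) across the same libraries. Such closeness was not particular to this pair: Pearson's r of log2 levels with Hadhb was 0.979 for Hadha, 0.982 for Acadvl and 0.979 for Slc25a20.

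Acaa2, a mitochondrial thiolase that releases acetyl-CoA at the end of the cycle (chromosome 18, 74779197 to 74806208), had means of 8651 ± 6422 normalized counts (SD, n = 4) in CON-LFD, 4956 ± 1115 in DIO-HFD, 5122 ± 690 in DIO-LFD and 5368 ± 2167 in DIO-VSG. The CON-LFD mean rested on replicate 2, at 18035, while the other 3 libraries of that group held 3795 to 7338. The limma log2 change in DIO-HFD minus CON-LFD was -0.58 ± 0.39 (adjusted P = 0.566), and without CON-LFD replicate 2 it was -0.14.

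Ppara (chromosome 15, 85734983 to 85802819) varied most of the 10 genes. It had normalized counts of 959, 2545, 312 and 557 in CON-LFD and of 87, 195, 247 and 335 in DIO-HFD. They were 503, 904, 277 and 279 in DIO-LFD and 386, 260, 1536 and 655 in DIO-VSG. DIO-HFD held the 3 lowest libraries, and its replicate 4 overlapped each of the other groups. The limma log2 change of Ppara was -2.05 ± 0.67 in DIO-HFD minus CON-LFD (unadjusted P = 0.00844, adjusted P = 0.25), 1.16 ± 0.67 in DIO-LFD minus DIO-HFD (adjusted P = 0.708) and 1.54 ± 0.67 in DIO-VSG minus DIO-HFD (unadjusted P = 0.038, adjusted P = 0.361). The exact two-sided permutation P values were 0.0571, 0.114 and 0.0571.

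**Figure D2:**
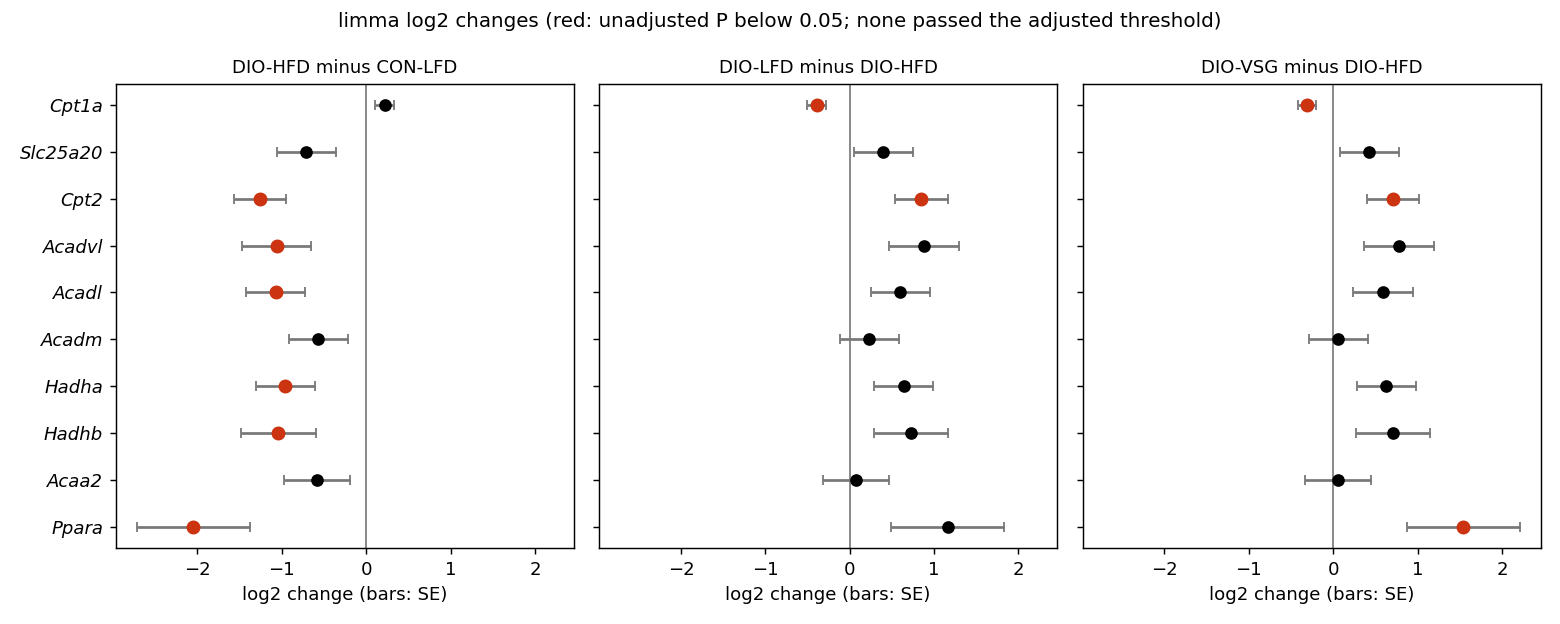
limma log2 change of each gene (x axis, bars are SE) in the 3 comparisons with DIO-HFD, with red points where the unadjusted P was below 0.05. Cpt1a lies on the opposite side of 0 from the other 9 genes in each panel, at 0.22, -0.39 and -0.31.

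Counted over the list, 0 of 10 members passed an adjusted limma P of 0.05 in DIO-HFD minus CON-LFD, where 0.0377% of all genes tested did, and limma voom on recovered reads also called 0. At an unadjusted limma P below 0.05, 6 members were lower in DIO-HFD (Cpt2, Acadl, Acadvl, Hadha, Hadhb and Ppara; 7.66% of all genes were) and 0 were higher (5.23% of all genes were). The groups did not overlap for 3 members (Cpt2, Acadvl and Hadha), against 4.76% of all genes. The median log2 change of the members was -1.0, beside 0.02 over all genes tested. CON-LFD replicate 2 decides much of this: without it the median was -0.59 and 3 members had an unadjusted limma P below 0.05 (8.53% of all genes did).

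In DIO-LFD minus DIO-HFD the count past the adjusted threshold was again 0, as it was for all genes (0%), and limma voom gave 0 members. At an unadjusted limma P below 0.05, Cpt2 was higher in DIO-LFD (5.37% of all genes were) and Cpt1a was lower (3.16% of all genes were). Groups did not overlap for 4 members (Cpt1a, Cpt2, Acadvl and Hadha), against 4.51% of all genes. The member median was 0.62, beside 0.01 over all genes. Members at an unadjusted limma P below 0.05 numbered 1 without DIO-HFD replicate 1 (8.07% of all genes) and 5 without CON-LFD replicate 2 (9.11%), against 2. In DIO-VSG minus DIO-HFD the adjusted count was 0 for members and 0% for all genes, and 0 by limma voom. At an unadjusted limma P below 0.05, Cpt2 and Ppara were higher in DIO-VSG (5.05% of all genes were) and Cpt1a was lower (8.12% of all genes were). Without CON-LFD replicate 2 and DIO-VSG replicate 3, left out together after the data were seen, Cpt2 was 0.49 ± 0.27 (limma unadjusted P = 0.0891) and Ppara 1.06 ± 0.55 (0.0802), so neither kept an unadjusted P below 0.05. Only Cpt1a had groups that did not overlap, against 6.59% of all genes. The member median was 0.61, beside 0.02 over all genes, and without DIO-VSG replicate 3 it was 0.34. Members at an unadjusted limma P below 0.05, 3 with all libraries, numbered 0 without DIO-HFD replicate 2 (7.87% of all genes), 1 without DIO-HFD replicate 1 (27.5%) and 5 without CON-LFD replicate 2 (13.8%). They numbered 1 without DIO-VSG replicate 3 or DIO-VSG replicate 4, where the share of all genes is not given here. These comparisons share the 4 DIO-HFD libraries, so they are not separate evidence.

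No member separated the 3 groups on the low-fat diet, even without adjustment. In DIO-VSG minus DIO-LFD, which compares surgery with diet alone, the limma log2 changes ran from -0.17 (Acadm) to 0.38 (Ppara), with a median of -0.01, and 0 members had an unadjusted P below 0.05, where 9.71% of all genes did. The SE was 0.11 for Cpt1a and 0.31 to 0.67 for the others. Against CON-LFD, the medians were -0.33 in DIO-LFD and -0.41 in DIO-VSG, again with 0 members at an unadjusted limma P below 0.05 (6.26% and 17.8% of all genes). No member passed the adjusted threshold in these 3 comparisons (0%, 0.00471% and 0% of all genes, in the same order).

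With the 3 low-fat-fed groups averaged, DIO-HFD had higher Cpt1a (limma log2 change 0.31 ± 0.09, unadjusted P = 0.00484, adjusted P = 0.223; 4.98% of all genes were higher at an unadjusted P below 0.05). It had 6 members lower at that level, from Hadha (-0.74 ± 0.28) to Ppara (-1.58 ± 0.55), where 6.66% of all genes were lower. The adjusted count was 0 for members and 0% for all genes, with limma voom again at 0. The exact two-sided permutation P was 0.0033 for Cpt1a, 0.0044 for Cpt2 and 0.0165 for Ppara, before any adjustment for the 70 exact tests of members made. DIO-HFD replicate 1, the lowest library for 9 members, decides much of this count. Without it, 2 members had an unadjusted limma P below 0.05 instead of 7, where 15% of all genes did in either direction. A marker score is the mean log2 level of a list relative to its average over all libraries. DIO-HFD replicate 1 had the highest B cell (2.37) and T cell (2.18) scores and the lowest adipocyte score (-1.33). CON-LFD replicate 2, the highest library for the same members, had the lowest B cell score (-5.92). Its T cell score (-3.34) was above that of DIO-HFD replicate 3 (-3.56). The part of cell composition in this count was not tested.

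Giving each library a weight from its own spread (limma arrayWeights) moved calls past the adjusted threshold: 5 members in DIO-HFD minus CON-LFD, where 19.8% of all genes were called with these weights, 2 in DIO-VSG minus DIO-HFD (17.6% of all genes) and 7 in DIO-HFD minus the low-fat-fed groups (20.5% of all genes). The weights thus moved calls across the whole table, and the count of 2 is close to the share of all genes. In the first of these the weighted adjusted P was 0.00992 for Cpt2, 0.0143 for Acadl, 0.0211 for Hadha, 0.0303 for Hadhb and 0.0449 for Acadvl.

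Carnitine palmitoyltransferase 1 has another form, encoded by Cpt1b (chromosome 15, 89416405 to 89425863), which muscle and brown fat use. Cpt1b had normalized counts of 1745, 10852, 408 and 813 in CON-LFD and of 265, 399, 682 and 356 in DIO-HFD. They were 990, 1584, 591 and 851 in DIO-LFD and 375, 288, 5544 and 1728 in DIO-VSG. Per kilobase, Cpt1b exceeded Cpt1a in 2 libraries, CON-LFD replicate 2 (2.01 times) and DIO-VSG replicate 3 (1.13 times). In the other libraries it was 0.045 to 0.399 times Cpt1a. The mean of log2(Cpt1b/Cpt1a) was -1.74 ± 2.04 (SD, n = 4) in CON-LFD, -3.95 ± 0.55 in DIO-HFD, -2.32 ± 0.74 in DIO-LFD and -2.31 ± 2.04 in DIO-VSG. The difference DIO-LFD minus DIO-HFD was 1.62, with groups that did not overlap (exact two-sided permutation P = 0.0286, 0.133 after adjustment over the 7 comparisons made), and the exact permutation P was 0.0571 without any 1 of 6 of the 8 libraries compared, all except replicate 3 of each group. The groups did not overlap after any of these omissions, and fewer libraries allow fewer splits. DIO-HFD minus CON-LFD was -2.21 (exact permutation P = 0.0571; -1.29 without CON-LFD replicate 2), DIO-VSG minus DIO-HFD was 1.64 (exact permutation P = 0.229; 0.81 without DIO-VSG replicate 3) and DIO-HFD minus the low-fat-fed groups was -1.82 (exact permutation P = 0.0396, adjusted 0.133, and from 0.0212 without DIO-VSG replicate 2 to 0.0923 without DIO-HFD replicate 1 before adjustment). Among the low-fat-fed groups the differences lay between -0.58 and 0.01, with exact permutation P values of 0.657 to 1. The muscle marker score, on a log2 scale where the 16 libraries average 0, was 0.33 in CON-LFD replicate 2 and -1.65 in DIO-VSG replicate 3, and the part of muscle in the ratio was not tested.

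**Figure D3:**
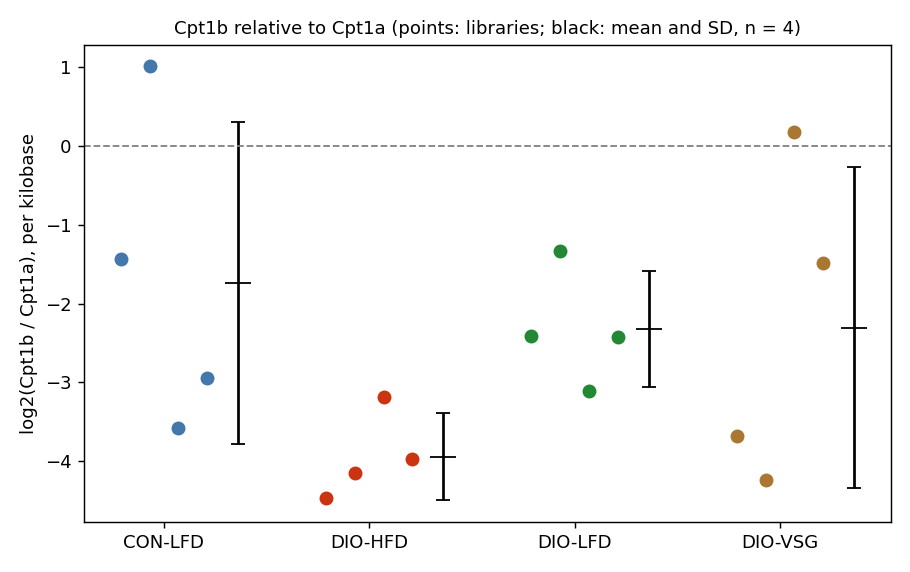
log2 ratio of Cpt1b to Cpt1a per kilobase in each library (points), with the mean and SD of each group in black and the line of equal level dashed. DIO-HFD libraries lie between -4.47 and -3.18, and only CON-LFD replicate 2 and DIO-VSG replicate 3 lie above 0.

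The wider pathway was described by 5 lists with 79 genes tested. In DIO-HFD minus CON-LFD, 24 were lower and 0 higher at an unadjusted limma P below 0.05 (7.66% and 5.23% of all genes were), 0 passed the adjusted threshold, and the median log2 change was -0.41. In DIO-LFD minus DIO-HFD 12 were higher and 0 lower (5.37% and 3.16% of all genes), and in DIO-VSG minus DIO-HFD 7 were higher and 3 lower (5.05% and 8.12% of all genes), with 0 past the adjusted threshold in both and medians of 0.30 and 0.15. In DIO-HFD minus the low-fat-fed groups 19 were lower and 0 higher (6.66% and 4.98% of all genes), with a median of -0.25 and 0 past the adjusted threshold. In the same comparison the smallest unadjusted limma P values in each list were those of Acsl1 (-1.25 ± 0.32), Hsd17b10 (-0.38 ± 0.12), Pex11a (-0.75 ± 0.22), Lpin1 (-1.03 ± 0.26) and Cidea (-3.62 ± 0.90).

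Of 11 genes of acyl activation and carnitine handling, 3 were lower in DIO-HFD minus CON-LFD at an unadjusted limma P below 0.05 (7.66% of all genes were): Acsl1, which activates long-chain fatty acids (log2 change -1.47 ± 0.39, adjusted P = 0.215), Crat, carnitine acetyltransferase (-1.04 ± 0.35), and Acsl3, another activating enzyme (-0.67 ± 0.23). Acsl1 was higher in DIO-LFD (1.17 ± 0.39) and DIO-VSG (1.11 ± 0.39) than in DIO-HFD at the same level, and Crat in DIO-LFD (0.85 ± 0.35). All 19 other mitochondrial beta-oxidation genes had a negative log2 change in DIO-HFD minus CON-LFD, 8 of them at an unadjusted limma P below 0.05 (again beside 7.66% of all genes), with values from -0.79 to -0.03. Those with the smallest P were Hsd17b10, a short-chain hydroxyacyl-CoA dehydrogenase (-0.53 ± 0.14), Echs1, the short-chain enoyl-CoA hydratase (-0.72 ± 0.25), and Acadsb, which acts on branched short chains (-0.56 ± 0.20). In DIO-LFD minus DIO-HFD, 4 were higher (5.37% of all genes were), among them Hsd17b10 (0.48 ± 0.14), Echs1 (0.84 ± 0.25) and Etfb, a subunit of the electron acceptor of the dehydrogenases (0.69 ± 0.26). In DIO-VSG minus DIO-HFD, 0 of these 19 had an unadjusted limma P below 0.05 in either direction, where 5.05% of all genes were higher and 8.12% lower.

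In the peroxisomal list of 16 genes, 3 were lower in DIO-HFD minus CON-LFD at an unadjusted limma P below 0.05 (7.66% of all genes were): Acox2, which oxidizes branched chains (-1.51 ± 0.54), Pex11a, a peroxisome division factor (-0.75 ± 0.27), and Abcd3, a fatty acid transporter (-0.70 ± 0.29). Pex11a was higher in DIO-LFD (0.86 ± 0.27) and in DIO-VSG (0.63 ± 0.27) than in DIO-HFD, the 1 gene of the 16 in each case, a share near the 5.37% and 5.05% of all genes. Of 18 regulators, 6 were lower in DIO-HFD minus CON-LFD (7.66% of all genes), led by Lpin1, a phosphatidate phosphatase and co-activator of PPAR-alpha (-1.30 ± 0.32, adjusted P = 0.185), Acacb, which makes the malonyl-CoA that inhibits carnitine palmitoyltransferase 1 (-2.12 ± 0.67), and Prkaa2, a catalytic subunit of AMPK (-0.79 ± 0.25). Acacb thus had a lower mean in the same group as Cpt2 and Ppara, and the limma log2 changes against DIO-HFD were 2.34 ± 0.67 in DIO-LFD and 1.89 ± 0.67 in DIO-VSG. Mlycd, which removes malonyl-CoA, was higher in DIO-LFD (0.58 ± 0.19), Lpin1 was higher in DIO-LFD (0.91 ± 0.32) and DIO-VSG (0.87 ± 0.32), and Esrra, the estrogen-related receptor alpha, in DIO-VSG (0.38 ± 0.15). In DIO-VSG minus DIO-HFD 2 of the 18 regulators were lower, a share near the 8.12% of all genes: Ppard (-0.26 ± 0.11) and Rxra (-0.31 ± 0.14), named here after their values were seen.

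Of 15 other known PPAR-alpha targets tested, 4 were lower in DIO-HFD minus CON-LFD at an unadjusted limma P below 0.05 (7.66% of all genes were), among them Cidea, a lipid droplet protein of brown and beige fat (-4.15 ± 1.10), Ucp3, a mitochondrial carrier (-1.38 ± 0.48), and Fabp3, a fatty acid-binding protein (-4.62 ± 1.64). The list was not uniform: 8 log2 changes were negative and 7 positive, with a median of -0.09. Cidea was higher than in DIO-HFD in DIO-LFD (3.35 ± 1.10) and DIO-VSG (3.37 ± 1.10), and Angptl4, an inhibitor of lipoprotein lipase, was lower in DIO-VSG (-0.64 ± 0.28). Each was the 1 gene of the 15 in its direction, a share near those of all genes (5.37% and 5.05% higher, 8.12% lower). Cidea also belongs to the thermogenic list used next, as do Cpt1b and Ppargc1a.

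Across the 16 libraries the members moved with each other. Over the 28 pairs of the 8 members other than Cpt1a and Ppara, Pearson's r of log2 levels was 0.80 to 0.98 with a median of 0.91, the closest pair being Acadvl and Hadhb. Cpt1a had an r of -0.43 to -0.05 with the others. The libraries share a normalization and contain the group differences, so these values are a description. With group means removed, the r of each member with the mean of the others was 0.91 to 0.98 for the 9 members and -0.08 for Cpt1a.

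Markers of thermogenic adipocytes moved with the same libraries. The normalized count of Ucp1, the uncoupling protein of brown and beige fat, was 24043 in CON-LFD replicate 2 and 21836 in DIO-VSG replicate 3, against 4.63 to 226 in DIO-HFD. It was 292 to 2182 in the other CON-LFD libraries, 114 to 2098 in DIO-LFD and 4658 in DIO-VSG replicate 4. DIO-VSG replicates 1 (72.6) and 2 (15.3) and DIO-LFD replicate 4 (114) lay within the DIO-HFD range. The sums of the 12 thermogenic genes were 4708 to 76175 in CON-LFD, 1718 to 5833 in DIO-HFD, 7639 to 15328 in DIO-LFD and 3714 to 52357 in DIO-VSG, and 7 of the 12 were lower in DIO-HFD minus CON-LFD at an unadjusted limma P below 0.05 (7.66% of all genes were). At the same level 3 were higher in DIO-LFD minus DIO-HFD (5.37% of all genes) and 2 in DIO-VSG minus DIO-HFD (5.05%). The mean log2 level of all 12 genes had an r of 0.81 (Acadm) to 0.98 (Hadha) with the 9 members over 16 libraries, with Spearman's rho of 0.76 to 0.98. Without the 2 libraries farthest from the median score r was 0.69 to 0.98, and with group means removed it was 0.85 to 0.98. For Cpt1a r was -0.40 and rho -0.39.

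With the thermogenic score added to the limma fit as a covariate, chosen after the data were seen, the member medians against DIO-HFD were 0.06 (DIO-HFD minus CON-LFD), -0.05 (DIO-LFD minus DIO-HFD) and -0.10 (DIO-VSG minus DIO-HFD). The log2 change of Cpt1a was then 0.19 ± 0.14, -0.37 ± 0.13 and -0.28 ± 0.13 in the same order, and that of Cpt2 was -0.48 ± 0.18, 0.31 ± 0.16 and 0.14 ± 0.16. Acaa2 took the other sign, at 0.43 ± 0.18, -0.63 ± 0.17 and -0.68 ± 0.17 (limma adjusted P of at least 0.199). Without the 2 libraries with the highest Ucp1, the limma log2 change of DIO-HFD minus CON-LFD was -1.01 ± 0.27 for Cpt2, -0.76 ± 0.27 for Acadl, -0.60 ± 0.24 for Acadvl, -0.61 ± 0.23 for Hadha and -1.50 ± 0.55 for Ppara, each at an unadjusted P below 0.05 (8.1% of all genes were, in either direction). Hadhb, at -0.59 ± 0.28, no longer was (unadjusted P = 0.0582). Slc25a20 (-0.32 ± 0.20), Acadm (-0.29 ± 0.31), Acaa2 (-0.14 ± 0.26) and Cpt1a (0.23 ± 0.13) were not either, and no member passed the adjusted threshold (0.00943% of all genes did). In DIO-LFD minus DIO-HFD, where neither library is in the groups compared but both enter the estimate of spread, members at an unadjusted P below 0.05 numbered 7 in this fit (8.77% of all genes), against 2 with all libraries. In DIO-VSG minus DIO-HFD the values for Acadm and Acaa2 became -0.14 and -0.17.

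**Figure D4:**
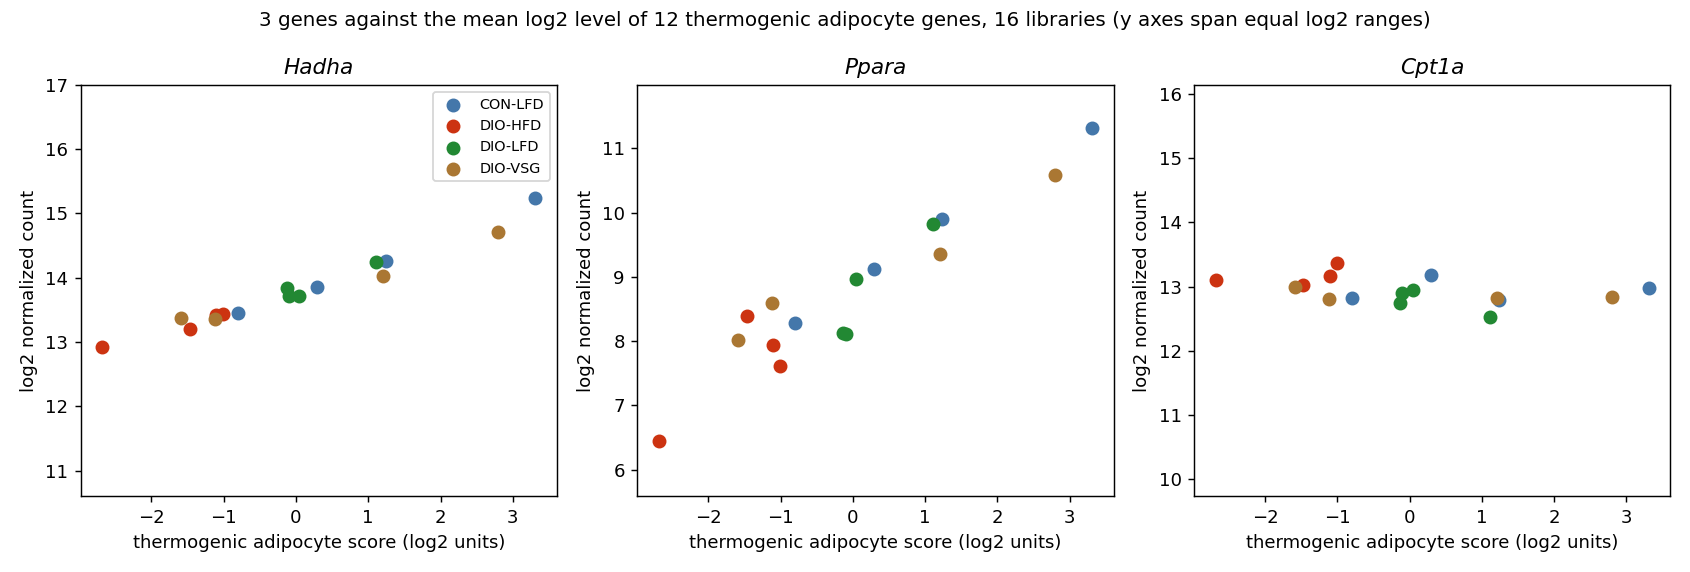
log2 normalized counts of Hadha, Ppara and Cpt1a (y axes of equal span) against the thermogenic adipocyte score, the mean log2 level of 12 genes relative to the 16-library average, with colors for groups. Hadha (r = 0.98) and Ppara (r = 0.95) climb with the score and Cpt1a (r = -0.40) does not.

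Markers of other cell types were compared in the same way. At an unadjusted limma P below 0.05, 7.66% of all genes were lower and 5.23% higher in DIO-HFD minus CON-LFD, 5.37% were higher in DIO-LFD minus DIO-HFD, 5.05% were higher in DIO-VSG minus DIO-HFD and 6.66% were lower in DIO-HFD minus the low-fat-fed groups. All 14 skeletal muscle genes had a negative limma log2 change in DIO-HFD minus CON-LFD, but 1 of them, a share near that of all genes, had an unadjusted P below 0.05 (Myh4, -6.17 ± 2.19), and all 14 a positive one in DIO-LFD minus DIO-HFD, with sums of 4100 to 43081 in CON-LFD, 2342 to 4842 in DIO-HFD, 2767 to 178547 in DIO-LFD and 2256 to 30847 in DIO-VSG. Of 10 mammary epithelial genes tested, 2 were lower in DIO-HFD minus CON-LFD at an unadjusted limma P below 0.05, 6 were higher in DIO-LFD minus DIO-HFD (Krt18, 1.25 ± 0.29), 1 was higher in DIO-VSG minus DIO-HFD and 5 were lower in DIO-HFD minus the low-fat-fed groups. The list was not uniform: 3 changes were negative and 7 positive in DIO-LFD minus DIO-HFD, and 2 negative and 8 positive in DIO-VSG minus DIO-HFD. Krt5 (-0.31 ± 0.52 and -0.62 ± 0.52) and Krt14 (-0.38 ± 0.42 and -0.76 ± 0.42) were negative in both. Sums of the 11 in the table were 44414 to 89992 in CON-LFD, 30335 to 62736 in DIO-HFD, 46577 to 126320 in DIO-LFD and 46951 to 70824 in DIO-VSG. Of 10 macrophage genes, Trem2 alone was higher in DIO-HFD minus CON-LFD at that level (1.45 ± 0.58), again not far from the share of all genes, 9 log2 changes were positive, and sums were 15148 to 117540 in CON-LFD and 46161 to 68168 in DIO-HFD. Trem2 was lower in DIO-VSG minus DIO-HFD (-1.67 ± 0.58), 9 of the 10 changes were negative and the median was -0.85, and in DIO-LFD minus DIO-HFD Itgax was lower (-0.71 ± 0.30), 9 were negative and the median was -0.27. Sums were 41114 to 62827 in DIO-LFD and 29394 to 67798 in DIO-VSG. All 10 B cell genes and all 10 T cell genes had a positive log2 change in DIO-VSG minus DIO-HFD (medians 2.80 and 2.27), in DIO-LFD minus DIO-HFD (1.54 and 0.87) and in DIO-HFD minus CON-LFD (1.18 and 0.66), with 0 at an unadjusted limma P below 0.05 in these 3 comparisons. In DIO-VSG minus CON-LFD, 10 of 10 B cell genes (median 3.99) and 8 of 10 T cell genes (2.79) were higher at that level, where 17.8% of all genes differed in either direction. Of the 14 adipocyte genes, 4 were lower in DIO-HFD minus CON-LFD at that level and 4 higher in DIO-LFD minus DIO-HFD. In DIO-VSG minus DIO-HFD 1 was higher (Gpd1, 2.02 ± 0.59) and 1 lower (Lep, -1.81 ± 0.61), shares near the 5.05% and 8.12% of all genes. There 10 changes were positive and 4 negative, with a median of 0.09. The part of these cell types in the members' changes was not tested.

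Genes of oxidative phosphorylation had a similar, though not identical, order of libraries. All 28 tested had a negative log2 change in DIO-HFD minus CON-LFD, 22 at an unadjusted limma P below 0.05 (7.66% of all genes were lower), with a median of -0.58, and the r of their mean level with the 9 members was 0.84 to 0.97. The member score minus the oxidative phosphorylation score, a difference of log2 means, was 0.19 ± 0.28 (SD, n = 4) in CON-LFD, -0.09 ± 0.14 in DIO-HFD, -0.09 ± 0.18 in DIO-LFD and -0.01 ± 0.23 in DIO-VSG. The adipocyte score had an r of 0.58 to 0.81 with the 9 members and the muscle score -0.03 to 0.24. The B cell score had an r of -0.71 (Acadm) to -0.28 (Ppara) with them and -0.53 with Cpt1a, and the fit that included it is given with the alternatives in the closing section.

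By the correlation over 16 libraries with the mean of the members, the genes outside all lists with the most similar pattern were Slc25a51 (r = 0.982), the mitochondrial NAD carrier, Dlst (0.981), a subunit of the 2-oxoglutarate dehydrogenase complex, Adck3 (0.969), Fh1 (0.968), fumarate hydratase, Idh3g (0.968), a subunit of NAD-dependent isocitrate dehydrogenase, Vwa8 (0.965), Suclg1 (0.965), a subunit of succinyl-CoA ligase, Ddhd2 (0.964), a phospholipase, Ddt (0.962) and Acsf3 (0.960), a mitochondrial acyl-CoA synthetase. With group means removed, r for these 10 was 0.953 to 0.981. Ppara alone was most similar to Acadl (r = 0.951), Cidea (0.951) and Sdha (0.950), a subunit of succinate dehydrogenase.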

How the data were processed

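RNA-Seq was done on 16 mammary adipose libraries. Per the labels and methods, stranded total RNA libraries were sequenced and normalized with DESeq2 after genes with few counts were dropped. The methods name STAR and salmon, whereas the submitters' processing notes name TopHat2 2.0.7, HTSeq 0.5.3p9 and mm10. The authors deposited variance-stabilized values, in log2 units from 5.36 to 21.85, although the table is described as normalized counts. The transformation was inverted, and multiplying the normalized counts by size factors (0.9036 to 1.2204) gave whole reads for 100.0% of values (tolerance 0.05). Animal numbers tied columns to samples, with 0 columns left over.

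limma-trend (limma 3.58.1, R 4.3.3) was run on log2(normalized count + 1) in 1 fit of 16 libraries, over genes that reached 10 normalized counts in 4 or more libraries, with two-sided tests, Benjamini-Hochberg adjustment over all 21218 genes and a threshold of 0.05. The fit was tested on simulated data. Single members were also tested by exact two-sided permutation over samples. Levels between genes were compared per kilobase of GENCODE M21 transcript. The score of a list is the mean log2 level of its genes minus their 16-library means. Members and lists were chosen with earlier results of these data known. All members were named, with up to 3 genes per wider list and comparison with DIO-HFD that had the smallest unadjusted P below 0.05, and the 10 genes most like the member mean. Of the marker lists, Wap and, of the PPAR-alpha targets, Cyp4a12a were not analysed here. Alternatives covered the scale, pseudocount, filter, normalization, weights, limma voom, the groups compared alone, replicate block, marker scores and each library left out.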

Additional observations from a re-analysis of the deposited data

Results flagged for a closer look

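Each of 44 sets of 4 libraries (the 10 members and Cpt1b in each group) was examined for a library far from the others of its group, and 2 were picked out by a critical value that chance passes in about 1 in 20 sets. Cpt1a in DIO-VSG replicate 2 had 8118 normalized counts against 7195 to 7291 in the other libraries of the group, a gap of 0.896 of the range. Cpt1b in CON-LFD replicate 2 had 10852 normalized counts against 408 to 1745, a gap of 0.872 of the range, in the library with the highest Ucp1.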

How the results depend on the processing

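Cpt1a kept its direction in the 4 comparisons that involve DIO-HFD under all alternatives run, and Cpt2 did too. Library weights (limma arrayWeights) took 5 members past the adjusted threshold in DIO-HFD minus CON-LFD (19.8% of all genes passed it), 2 in DIO-VSG minus DIO-HFD (17.6%) and 7 in DIO-HFD minus the low-fat-fed groups (20.5%), against 0 otherwise, except that 1 passed in the first comparison without CON-LFD replicate 3 (0.603% of all genes). When the fit included the B cell score, members at an unadjusted limma P below 0.05 numbered 7 in DIO-LFD minus DIO-HFD and 7 in DIO-VSG minus DIO-HFD, against 2 and 3, and 0 passed the adjusted threshold. The shares of all genes in that fit were 15.8% and 10.1%. Leaving out 1 library moved the member median in DIO-HFD minus CON-LFD between -1.25 and -0.59 (without CON-LFD replicate 2) and in DIO-VSG minus DIO-HFD between 0.34 (without DIO-VSG replicate 3) and 0.78.

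The thermogenic score as a covariate, added after the data were seen, brought the member medians close to 0, and the cause was not tested. They were 0.06 (DIO-HFD minus CON-LFD), -0.05 (DIO-LFD minus DIO-HFD), -0.10 (DIO-VSG minus DIO-HFD) and 0.06 (DIO-HFD minus the low-fat-fed groups). The log2 changes that took the other sign in DIO-HFD minus CON-LFD were 0.24 (Acadm), 0.02 (Acadvl), 0.10 (Hadhb), 0.43 (Acaa2) and 0.16 (Slc25a20). In DIO-LFD minus DIO-HFD they were -0.33 (Acadm), -0.01 (Acadl), -0.01 (Hadha), -0.07 (Hadhb), -0.03 (Ppara), -0.63 (Acaa2) and -0.20 (Slc25a20). In DIO-VSG minus DIO-HFD they were -0.53 (Acadm), -0.06 (Acadl), -0.01 (Acadvl), -0.05 (Hadha), -0.14 (Hadhb), -0.68 (Acaa2) and -0.20 (Slc25a20). In DIO-HFD minus the low-fat-fed groups they were 0.37 (Acadm), 0.01 (Hadha), 0.10 (Hadhb), 0.58 (Acaa2) and 0.19 (Slc25a20). The SEs of these values were 0.10 to 0.31, so those near 0 have no clear sign. Without the 2 libraries of highest Ucp1, DIO-VSG minus DIO-HFD was -0.14 for Acadm and -0.17 for Acaa2.

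With 1 library left out, Acadm ranged from -0.05 to 0.48 in DIO-LFD minus DIO-HFD, from -0.23 to 0.30 in DIO-VSG minus DIO-HFD and from -0.53 to 0.00 in DIO-HFD minus the low-fat-fed groups, and Acaa2 from -0.10 to 0.16 and from -0.17 to 0.24 in the first 2 of these. The difference in log2(Cpt1b/Cpt1a) ranged from -2.82 to -1.29 in DIO-HFD minus CON-LFD, from 1.29 to 1.89 in DIO-LFD minus DIO-HFD, from 0.81 (without DIO-VSG replicate 3) to 2.28 in DIO-VSG minus DIO-HFD, from -2.08 to -1.54 in DIO-HFD minus the low-fat-fed groups, from -0.82 to 0.66 in DIO-VSG minus DIO-LFD, from -1.20 to 0.33 in DIO-LFD minus CON-LFD and from -1.40 to 0.35 in DIO-VSG minus CON-LFD. In DIO-LFD minus DIO-HFD its exact permutation P was 0.0286 without DIO-HFD replicate 3 or DIO-LFD replicate 3, and 0.0571 without any 1 of the other 6 libraries of these groups. The groups did not overlap after any of these omissions, and fewer libraries allow fewer splits.

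Replicate numbers did not pair the samples: over 24 pairs of same-numbered libraries of different groups the correlation of deviations had a median of 0.093 and was over 0.1 in 9, and 3 of 16 libraries correlated best with their own number. With the replicate block the member medians were -1.0, 0.62 and 0.61 in the 3 comparisons with DIO-HFD, and members at an unadjusted P below 0.05 in DIO-VSG minus DIO-HFD numbered 1 against 3 (11.8% of all genes with the block).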
